A study of Mus musculus with 2 samples.

Results

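The 37 genes of the mouse mitochondrial genome were described in poly(A)-selected RNA of the adrenal gland, a gland of steroid-producing cortex and catecholamine-producing medulla. Members were the rows of both gene tables whose Ensembl identifier carries a symbol starting with mt-, which gave 37 of 43346 Ensembl genes. They comprise 13 mRNA genes, 2 rRNA genes and 22 tRNA genes. The tissue came from 1 adult female C57BL/6J mouse aged 10 weeks, with no treatment or altered allele named, and RNA of that 1 biological sample was sequenced as 2 technical libraries, of which replicate 2 was made later. No condition was compared, and all values stand in 1 group of 2 libraries. Spread between them is therefore technical, library and date cannot be told apart, and how much animals differ was not measured.

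Mitochondrial DNA is a small circle whose strands are each transcribed as long RNAs that span many genes. The tRNAs lie between the other genes, and enzymes cut them out at both ends, which releases the mRNAs and rRNAs. Most of these mRNAs then receive a short poly(A) tail. Each of the 13 proteins is a core subunit of the respiratory chain or of ATP synthase, which in the adrenal cortex also stands beside the mitochondrial steps of steroid synthesis.

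In the GRCm38 annotation the genes run in order from mt-Tf at chrM:1-68 to mt-Tp at chrM:15356-15422. The plus strand carries 28 of them, including 12 mRNA genes, both rRNA genes and 14 tRNA genes. On the minus strand lie 8 tRNA genes and 1 mRNA gene, mt-Nd6. Of the 15 mRNA and rRNA genes, 8 have a tRNA gene on both sides, 6 on 1 side and 1, mt-Atp6, on neither. Packing is tight: of 36 neighbouring pairs, 9 overlap and 12 have no base between them.

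Overlaps between reading frames are short. Fragments averaged 189 and 191 bases, so a fragment of that size cannot lie inside an overlap. The mt-Atp8 and mt-Atp6 frames share 43 bases, and those of mt-Nd4l and mt-Nd4 share 7. Both are shown from GENCODE M21 transcripts on GRCm38, plus strand, 5′ to 3′, with the shared bases in capitals, at chrM:7915-7981 and chrM:10155-10185.
mt-Atp8 and mt-Atp6: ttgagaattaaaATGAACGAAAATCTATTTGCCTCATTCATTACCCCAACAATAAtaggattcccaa
mt-Nd4l and mt-Nd4: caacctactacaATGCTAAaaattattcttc
In both pairs the capitals begin with the ATG of the downstream gene and end with the TAA of the upstream one. On opposite strands, mt-Nd5 and mt-Nd6 overlap by 14 bases.

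The ends of the mRNAs tie them to the poly(A) tail that was used to select the RNA. Of 13 annotated coding sequences, 8 end in TAA, 2 in TAG and 3 in a single T past the last full codon. In such genes the tail supplies the missing bases of the stop codon. The 3 genes are mt-Co3, mt-Nd4 and mt-Cytb, whose last 31 bases (chrM:9360-9390, chrM:11514-11544 and chrM:15258-15288) are shown with that T in capitals, beside mt-Nd1 and mt-Co1 (chrM:3675-3707 and chrM:6840-6872) with complete stop codons in capitals.
mt-Co3: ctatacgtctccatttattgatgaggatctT
mt-Nd4: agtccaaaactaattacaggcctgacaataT
mt-Cytb: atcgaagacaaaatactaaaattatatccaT
mt-Nd1: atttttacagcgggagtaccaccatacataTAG
mt-Co1: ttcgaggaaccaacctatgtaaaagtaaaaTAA
Start codons are ATG in 9 genes, GTG in mt-Nd1, ATA in mt-Nd2, ATT in mt-Nd3 and ATC in mt-Nd5, all of which mitochondria of mammals can read as starts.

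Replicate 1 held 28267651 expected counts (estimated fragments per gene, rounded) and replicate 2 held 17376660, assigned to 17476 and 18588 genes. Defining markers of the labelled tissue were present, except that Pnmt of the medulla was at 0 in replicate 1. The 5 cortex markers summed to 6963 and 26206 TPM, and the 5 medulla markers to 339 and 4492 TPM. TPM is a level per effective length, scaled to the same total in each library. Kidney markers summed to at most 0.38 TPM, with Umod, Slc34a1 and Miox at 0 in both libraries. Liver markers summed to at most 4.44 TPM, and ovary markers to at most 3.01 TPM with Zp3 and Fshr at 0 in both. Markers of 2 further cell types were above 0: 6 of 6 for adipocytes, summing to 463 and 2412 TPM, and 5 of 5 for skeletal muscle, summing to 11.1 and 322 TPM. None of these 11 genes was at 0, although some muscle markers were close to it in replicate 1, such as Ckm with 3 counts. Erythroid markers, also 5 of 5 above 0, summed to 49.3 and 2973 TPM. All 8 marker sums were higher in replicate 2, where genes other than the members and their copies held 61.6% of summed TPM against 17.5% in replicate 1. The part of these cell types in the results was not tested. Both libraries come from the same biological sample, so differences of these sums between them are technical. Within a library of bulk RNA, few cells of a type and little RNA per cell cannot be told apart.

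Mitochondrial genes took 40.1% of counts in replicate 1 (95% exact Clopper-Pearson interval 40.04 to 40.08) and 10.6% in replicate 2 (10.63 to 10.66). These intervals cover counting error only. Over both libraries the share was 25.4% ± 20.8 (SD, n = 2), so the libraries lie far outside counting error of each other. The mRNA genes accounted for 38.9% and 10.2% of counts and the rRNA genes for 1.17% and 0.401%. By summed TPM the 37 genes stood at 54.7% and 21.6%, more than by counts in both libraries. Much of that TPM came from 1 short gene, mt-Atp8, whose 204 bases left an effective length of 37.6 and 38.4. It held 207976 of 546809 TPM in replicate 1 and 78068 of 216339 in replicate 2, so the comparison with counts rests heavily on its length correction. All 13 mRNA genes ranked among the 27 highest of all genes by TPM in replicate 1. In replicate 2, 11 ranked among the top 50, while mt-Nd3 ranked 125 and mt-Nd6 ranked 270.

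Complex I, the NADH dehydrogenase that feeds electrons into the chain, has 7 mitochondrial subunit genes. In replicates 1 and 2, mt-Nd1 held 1172659 and 192815 counts (45911 and 20145 TPM). Its neighbour mt-Nd2 held 1604470 and 194269 counts (56832 and 18358 TPM), above mt-Nd1 by TPM in replicate 1 and below it in replicate 2. Per kilobase of annotated length the ratio of mt-Nd2 to mt-Nd1 was 1.26 and 0.929, so their order changed between the libraries. The mt-Nd4 gene held 1483561 and 248221 counts (37538 and 16742 TPM), and mt-Nd5, the longest of the 13 at 1824 bases, held 992864 and 147698 (18274 and 7242 TPM). The short genes mt-Nd3 and mt-Nd4l stood far below these on deposited values. Counts of mt-Nd3 were 8262 and 1331 (1532 and 661 TPM), and those of mt-Nd4l were 12360 and 2141 (3259 and 1508 TPM). By TPM the lowest of the 13 in both libraries was mt-Nd6, at 921 and 362, although its 10128 and 1489 counts exceeded those of mt-Nd3.

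Complex III, which passes electrons to cytochrome c, has 1 mitochondrial subunit, cytochrome b. Its gene mt-Cytb held 1047049 and 200328 counts (32976 and 16826 TPM). Complex IV, cytochrome c oxidase, has 3, and mt-Co1 for its catalytic core subunit held the highest count of any gene in each library, 3428214 and 686423 (76069 and 40590 TPM). Its partners were much lower on deposited values: mt-Co2 held 188259 and 8296 counts (11425 and 1346 TPM) and mt-Co3 held 302704 and 18215 (15290 and 2458 TPM). Both libraries thus placed mt-Co1 above mt-Co2 by TPM, by 6.66 and 30.2 times. In ATP synthase, mt-Atp6 encodes the membrane subunit a of the proton channel and mt-Atp8 a small membrane subunit. Counts of mt-Atp6 were 484658 and 41091 (29593 and 6707 TPM), and those of mt-Atp8 were 259446 and 37431 (207976 and 78068 TPM). By TPM mt-Atp8 ranked first of all genes in both libraries.

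The low values of mt-Co2, mt-Co3, mt-Atp6, mt-Nd3 and mt-Nd4l did not stand alone. Chromosome 1 holds a block of 7 pseudogenes copied from mitochondrial DNA, at chr1:24611535-24616197 on the minus strand of GRCm38. From Gm29216 to Gm28439 they match mt-Co1, mt-Co2, mt-Atp6, mt-Co3, mt-Nd3, mt-Nd4l and mt-Nd4 in mitochondrial order, over 4663 bases. Positions on the mitochondrial genome and on the block sum to the same number within 1 base throughout. Of these copies 5 match the member at 100% identity over the whole length of the copy. Gm28661, 681 bases long, matches all but the last 3 bases of the 684-base mt-Co2. Gm10925 matches mt-Atp6 over 678 bases, Gm28437 matches mt-Co3 over 783, Gm10222 matches mt-Nd4l over 294, and Gm28439 matches the first 876 of 1378 bases of mt-Nd4. A fragment from such a stretch has 2 equal origins in the annotation.

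The other 2 copies differ from their member by 1 base each within the aligned stretch, which leaves out 9 of the 492 bases of Gm29216. Written as the base of the member, its position from the 5′ end of the annotated gene, and the base of the copy, Gm28438 differs from mt-Nd3 by T3C over 345 bases. Gm29216 differs from the last 483 bases of mt-Co1 by A1066T. The differing base is in capitals in 31 bases of each, 5′ to 3′, for mt-Nd3 (chrM:9459-9489, plus strand), Gm28438 (chr1:24613089-24613119, minus strand), mt-Co1 (chrM:6390-6420, plus strand) and Gm29216 (chr1:24616158-24616188, minus strand).
mt-Nd3: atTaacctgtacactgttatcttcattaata
Gm28438: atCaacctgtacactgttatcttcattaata
mt-Co1: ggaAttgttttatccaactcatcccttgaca
Gm29216: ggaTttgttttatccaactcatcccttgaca
Only fragments that cover these positions, or bases beyond the ends of the copy, can tell such a pair apart.

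Together the 7 copies held 3682209 counts in replicate 1 and 810565 in replicate 2, or 13.03% and 4.66% of each library. Gm28661 held 1256831 and 257258 counts, Gm10925 held 1106851 and 182101, and Gm28437 held 758394 and 224266. Of the summed counts of each pair, the mitochondrial gene received 13.03% and 3.12% for mt-Co2, 30.5% and 18.4% for mt-Atp6, and 28.5% and 7.51% for mt-Co3. It received 3.37% and 2.82% for mt-Nd3 and 7.21% and 6.08% for mt-Nd4l. For the pairs contained within a longer member the division went the other way, and it changed between libraries: Gm28439 held 159261 counts in replicate 1 and 40 in replicate 2, while Gm29216 held 5010 and 68018. These splits are the estimates deposited by the authors.

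Copies of lower identity held almost nothing. A further 8 copies on chromosomes 2, 4, 11 and 13 match mt-Co1, mt-Co2, mt-Nd2, mt-Nd5, mt-Nd6 or mt-Cytb at 90.7% to 97.6% identity. They held 199 counts in replicate 1 and 26 in replicate 2 between them. Only Gm13341, a copy of mt-Co2 with 129 and 16 counts, and Gm13340, a copy of the whole of mt-Co1 with 68 and 10, had a summed count of at least 20. Whether any count of the chromosome 1 block came from transcription of chromosome 1 was not tested.

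**Figure D1:**
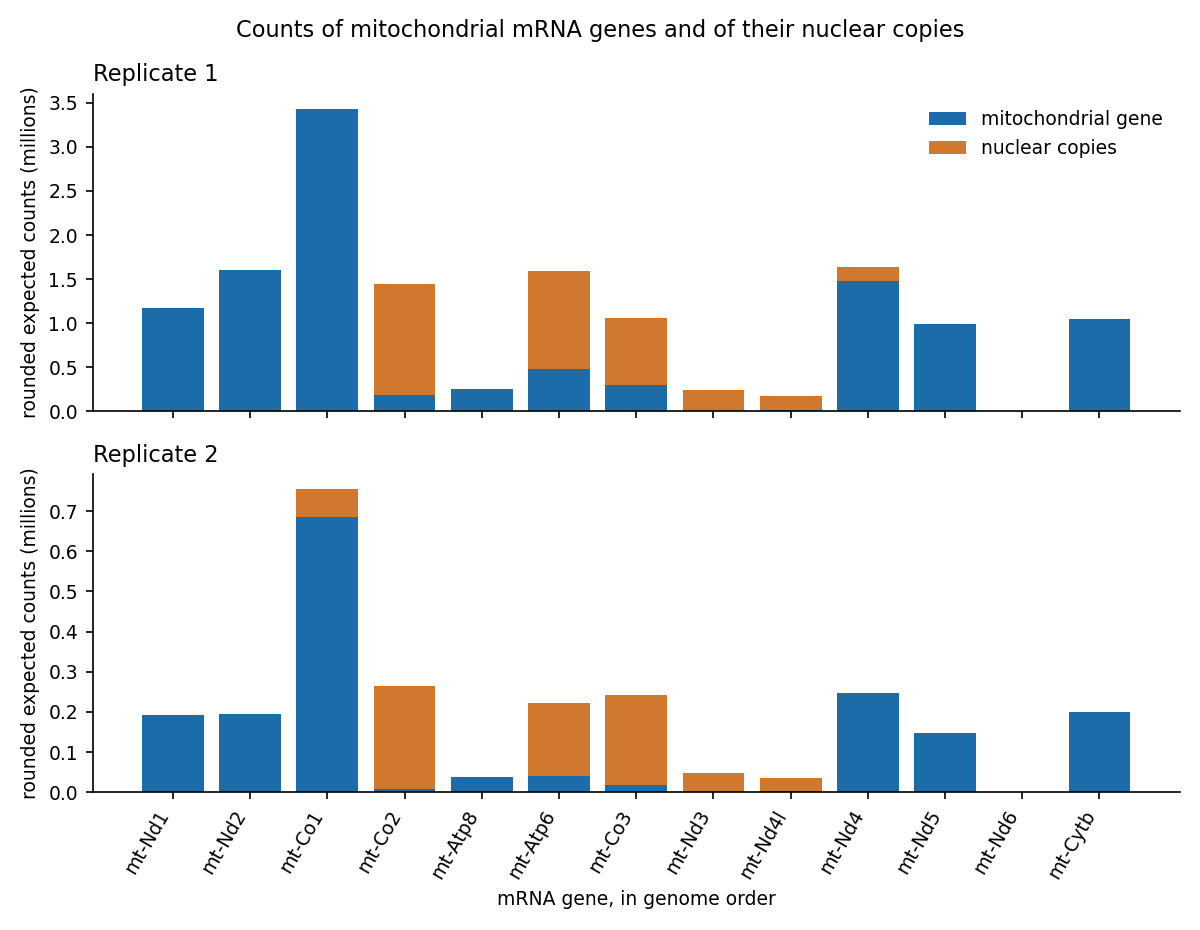
Rounded expected counts, on a linear axis, of each mRNA gene in genome order (blue) with the counts of its nuclear copies stacked on top (orange), for each library. Copies take most of the stack for mt-Co2, mt-Atp6, mt-Co3, mt-Nd3 and mt-Nd4l in both libraries, and mt-Nd6 is too low to see at 10128 and 1489 counts.

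The deposited posterior estimates give an uncertainty of the divisions within each library. Genes with no copy in the block had posterior SDs of at most 1.81e-05% of the mean count in replicate 1 and 8.24e-05% in replicate 2. For mt-Co2 the posterior mean was 340542 counts with an SD of 181457 in replicate 1, and 47140 with an SD of 45175 in replicate 2. That SD is 53.3% and 95.8% of the mean. For mt-Co3 it was 52.3% and 81.3%, and for mt-Atp6 34.7% and 54.4%. The deposited TPM interval of mt-Co2 in replicate 1 ran from 11203 to 44956, and that of mt-Co3 in replicate 2 from 2105 to 23342. By contrast the interval of mt-Co1, which also has a block copy, ran from 73806 to 74066 in replicate 1. A small SD did not mean a division that held between the libraries. In replicates 1 and 2 the SD was 0.00485% and 0.0570% of the mean for mt-Co1, and 0.0966% and 0.00567% for mt-Nd4. Yet Gm29216 went from 5010 to 68018 counts and Gm28439 from 159261 to 40. Intervals belong to the posterior estimate, and the deposited TPM can lie outside them, as it does for mt-Co1 at 76069. In the 6 genes without a block copy, mt-Nd1, mt-Nd2, mt-Atp8, mt-Nd5, mt-Nd6 and mt-Cytb, the division of reads adds next to no uncertainty.

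**Figure D2:**
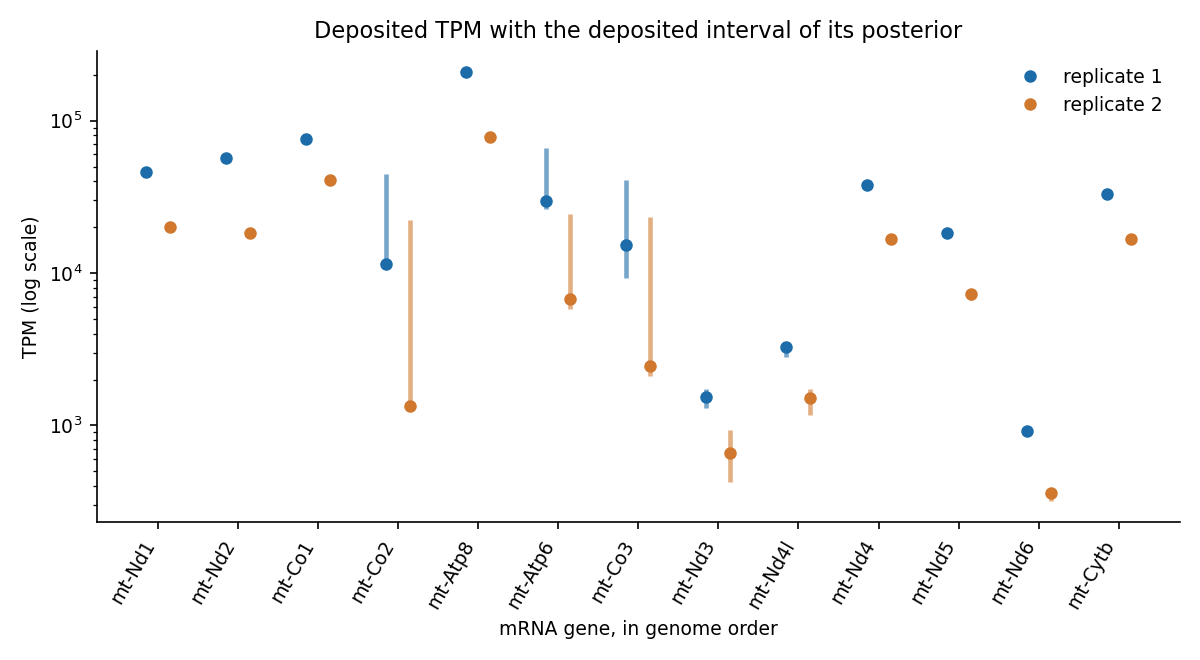
Deposited TPM (points) and the deposited interval of its posterior (bars) on a log axis, for the 13 mRNA genes in genome order, replicate 1 in blue and replicate 2 in orange. Bars are long for mt-Co2, mt-Atp6 and mt-Co3, reaching from 1281 to 22353 TPM for mt-Co2 in replicate 2, and short for genes with no copy in the chromosome 1 block.

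Adding the counts of all copies to the member they match removes this division, at the price of counting any true nuclear transcripts as mitochondrial. On that basis mt-Co2 had 1445219 and 265570 counts, mt-Atp6 had 1591509 and 223192, and mt-Co3 had 1061098 and 242481. The 3 oxidase genes then lay within 1.64 and 1.58 times of each other per kilobase of annotated length. The mt-Co1 to mt-Co2 ratio per kilobase went from 8.06 and 36.6 without copies to 1.05 and 1.26. The level of mt-Nd3 was then 31.7% and 27.7% of mt-Co1, against 1.07% and 0.861% per kilobase without copies. That of mt-Nd4l was 26.0% and 24.3% of mt-Co1, against 1.88% and 1.62%. Effective length, the number of positions where a fragment can start, was 46.7% and 46.3% of annotated length for mt-Nd3. It was 38.5% and 38.3% for mt-Nd4l and 87.8% and 87.7% for mt-Co1. Annotated length therefore places such short genes lower relative to mt-Co1 than effective length does, here and in the order below.

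Per kilobase with copies added, the order in replicate 1 was mt-Atp6, mt-Co1, mt-Co2, mt-Nd2, mt-Co3, mt-Atp8, mt-Nd1, mt-Nd4, mt-Cytb, mt-Nd3, mt-Nd4l, mt-Nd5 and mt-Nd6. In replicate 2 the last 6 kept these ranks, and the first 7 were mt-Co1, mt-Co2, mt-Atp6, mt-Co3, mt-Nd1, mt-Nd2 and mt-Atp8. Among those first 7 the order therefore changed between libraries, as where mt-Atp6 stood first in replicate 1 and behind mt-Co1 and mt-Co2 in replicate 2. Across the 13 genes the log2 values of the libraries correlated at Pearson r = 0.989 and Spearman rho = 0.956, which describes 13 genes of 1 RNA sample measured in both libraries. Apart from mt-Nd6, the lowest gene, mt-Nd5, stood at 24.5% and 16.6% of mt-Co1.

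The shortest mRNA gene is mt-Atp8. Effective length is the number of positions where a fragment can start within a transcript. Fragments averaged 189 and 191 bases, from the difference between annotated and effective length of long genes. The labels give a size range of 350 to 450 and do not say whether adapters count in it. The 204 bases of mt-Atp8 left an effective length of 37.6 and 38.4, or 18.4% and 18.8% of its annotated length. For mt-Nd4l at 297 bases the share was 38.5% and 38.3%, for mt-Nd3 at 348 bases 46.7% and 46.3%, and for mt-Nd5 89.7% and 89.6%. By TPM mt-Atp8 stood above mt-Atp6 by 7.03 and 11.6 times. Per kilobase of annotated length with no copies added it was 1.79 and 3.04 times mt-Atp6, and its rank among the 13 went from 1 by TPM to 3 in replicate 1 and 4 in replicate 2. Adding the copies of mt-Atp6 as well put mt-Atp8 at 0.544 and 0.560 times mt-Atp6, at rank 6 and 7. The change of length alone thus lowered its rank without reversing its order with mt-Atp6. That order turned when copies were added on annotated length. The 2 genes overlap by 43 bases with no tRNA gene between them, as do mt-Nd4l and mt-Nd4 by 7. Such ratios compare values per gene, and whether the genes of each pair lie on separate RNAs was not tested. With copies added per effective length mt-Atp8 still ranked 1 of the 13, by the mean of both libraries.

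The deposited tables annotate no copy of mt-Atp8 on chromosome 1, although 233 bases without an annotated gene lie between Gm10925 and Gm28661. The same stretch of the mitochondrial genome, from the end of the match in mt-Co2 to the start of mt-Atp6, is also 233 bases long and contains the part of mt-Atp8 that lies outside the overlap. No mt-Atp8 count was therefore divided with an annotated copy, and whether that stretch resembles mt-Atp8 was not analysed here.

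**Figure D3:**
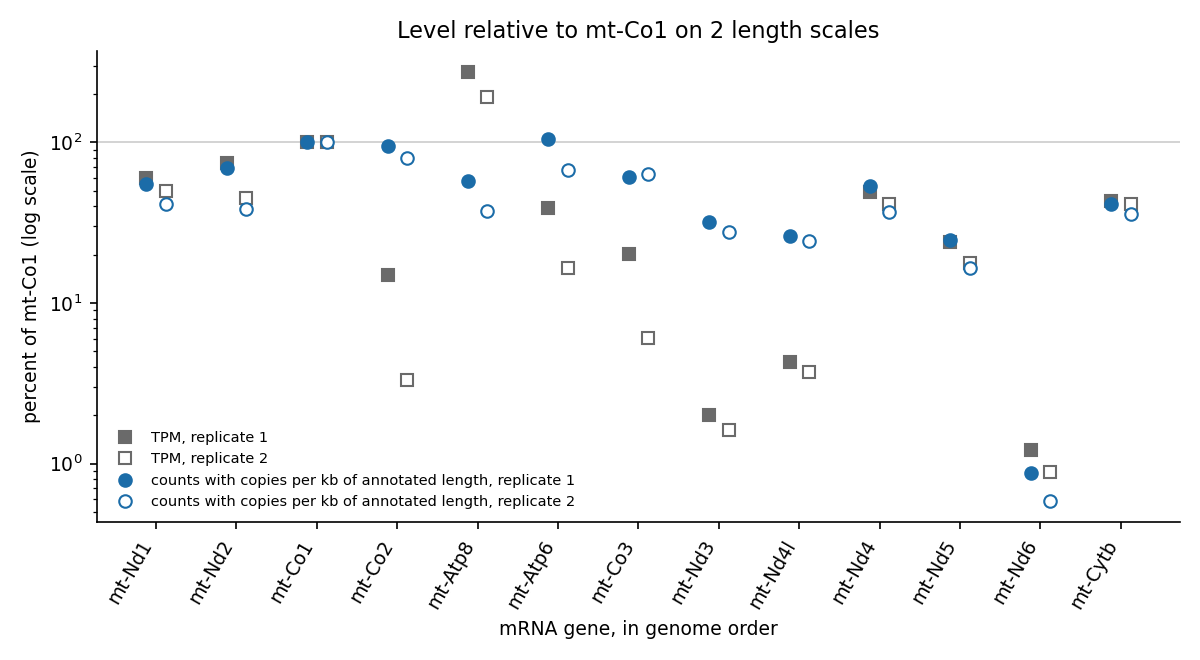
Level of each mRNA gene as a percent of mt-Co1 on a log axis, by deposited TPM (grey squares) and by counts with copies added per kilobase of annotated length (blue circles), with replicate 1 filled and replicate 2 open. The scales differ both in length and in copies: mt-Atp8 is above mt-Co1 by TPM only, and mt-Co2, mt-Co3, mt-Nd3 and mt-Nd4l are far lower by TPM, mt-Co3 at 6.05% against 63.3% in replicate 2.

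The only mRNA gene on the minus strand, mt-Nd6, stood apart from the other 12. It encodes a membrane subunit of complex I and comes from the other primary transcript, and its mRNA is known for having little or no poly(A) tail. Per kilobase with copies added it was 114 and 170 times lower than mt-Co1. Relative to mt-Nd5, the gene it overlaps on the opposite strand, it was 27.9 and 28.2 times lower, a ratio that hardly moved between the libraries. It took 0.0690% of mRNA counts with copies in replicate 1 (95% exact interval 0.0677 to 0.0704) and 0.0575% in replicate 2 (0.0546 to 0.0605). Whether counting used the strand is not given in the sources used here. Reads from the opposite strand therefore cannot be told apart anywhere along mt-Nd6, and its levels and ratios carry that limit.

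The rRNA genes lie upstream of the mRNA genes, mt-Rnr1 for the small and mt-Rnr2 for the large ribosomal subunit. In replicate 1 mt-Rnr1 held 118372 counts and in replicate 2 it held 27897 (4646 and 2922 TPM). Counts of mt-Rnr2 were 211337 and 41757 (4565 and 2404 TPM). Per kilobase the ratio of mt-Rnr2 to mt-Rnr1 was 1.08 and 0.904, so the pair stood near equal levels. Per kilobase with copies added, both stood below 12 of the 13 mRNA genes in these poly(A)-selected libraries and above mt-Nd6. The mt-Co1 gene exceeded mt-Rnr2 by 16.6 and 18.5 times on that scale, and mt-Rnr2 exceeded mt-Nd6 by 6.85 and 9.20 times. By deposited TPM mt-Rnr1 also stood above mt-Nd3 and mt-Nd4l in both libraries, and above mt-Co2 and mt-Co3 in replicate 2. No nuclear copy of either gene passed the similarity limits used here.

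All 22 tRNA genes had 0 counts in both libraries, and this says nothing of tRNA levels. They are 59 to 75 bases long, shorter than the average fragment, and each has an effective length of 0. Of the 43346 genes 3902 had an effective length of 0, none with counts in replicate 1 and 1 with counts in replicate 2. No gene of 117 bases or less had an effective length above 0. Sequences of 4 tRNAs show what falls below that limit: mt-Td (aspartate), lowest in GC content at 17.1%, mt-Tm (methionine), highest at 44.9%, mt-Tl1 (a leucine tRNA), the longest, and mt-Ts2 (a serine tRNA that lacks the usual D arm), the shortest. They lie on the plus strand at chrM:6942-7011, chrM:3845-3913, chrM:2676-2750 and chrM:11613-11671.
mt-Td: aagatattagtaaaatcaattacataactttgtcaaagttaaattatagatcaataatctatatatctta
mt-Tm: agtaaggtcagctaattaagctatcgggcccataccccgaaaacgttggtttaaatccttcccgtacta
mt-Tl1: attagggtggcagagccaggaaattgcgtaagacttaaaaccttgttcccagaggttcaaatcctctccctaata
mt-Ts2: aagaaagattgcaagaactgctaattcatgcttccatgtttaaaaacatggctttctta

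Between the libraries, all 13 mRNA genes and both rRNA genes were lower in replicate 2. Counts were scaled with TMM, and a gene was called at a Benjamini-Hochberg adjusted p under 0.05 and at least 2-fold in a two-sided exact binomial test of the 2 libraries. All 15 were called lower, against 27.2% of the 14358 genes tested. The test compares these 2 libraries, not conditions. The median log2 ratio of the mRNA genes was -3.16, against 0.12 over all genes tested. Single genes ran from -2.73 for mt-Co1 to -4.92 for mt-Co2, with mt-Co3 at -4.47 and mt-Atp6 at -3.97. The rRNA genes stood at -2.50 for mt-Rnr1 and -2.75 for mt-Rnr2, higher than every mRNA gene except mt-Co1, which lay between them. Scaling by total counts moves every log2 ratio up by 1.12. It calls 3.95% of genes lower and 54.1% higher, against 27.2% and 36.8% with TMM. Scaling by the totals of nuclear genes calls 20.7% lower and 40.4% higher, and removing the trend with gene length 33.6% and 30.7%. Under each of these 3 settings all 13 mRNA genes were called lower.

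The 3 largest differences followed the division of reads with the copies. With copies added, mt-Co2 went from -4.92 to -2.88, mt-Co3 from -4.47 to -2.57 and mt-Atp6 from -3.97 to -3.27 on the log2 scale. The 13 genes then ran from -3.48 for mt-Nd2 to -2.57 for mt-Co3, with a median of -3.04. All 13 were again called lower, against 27.8% of genes.

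Base composition moved with this difference. GC content of the 13 mRNA genes ran from 31.9% for mt-Atp8 to 41.1% for mt-Nd4l. Of 940 tested nuclear genes in that GC range, 95.5% were called lower in replicate 2. Their log2 ratios had a median of -1.98, against 0.12 over all nuclear genes, with 10th and 90th percentiles of -2.53 and -1.39. On the same TMM-scaled counts the 13 mRNA genes ran from -4.92 to -2.73, all below that 10th percentile. With the trend of the log2 ratio with GC removed, 4 mRNA genes were called lower, against 12.4% of genes, and the median was -0.82. Those 4 were mt-Co2 at -2.82, mt-Co3 at -2.41, mt-Atp6 at -1.51 and mt-Nd4l at -1.21, all with a copy in the block. With copies added and the GC trend removed, an alternative chosen after seeing the data, none of the 13 passed the 2-fold minimum, against 12.3% of genes called lower. Values then ran from -0.97 for mt-Nd2 to 0.06 for mt-Nd3, 12 of them below 0, with mt-Rnr1 at -0.02 and mt-Rnr2 at -0.22.

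**Figure D4:**
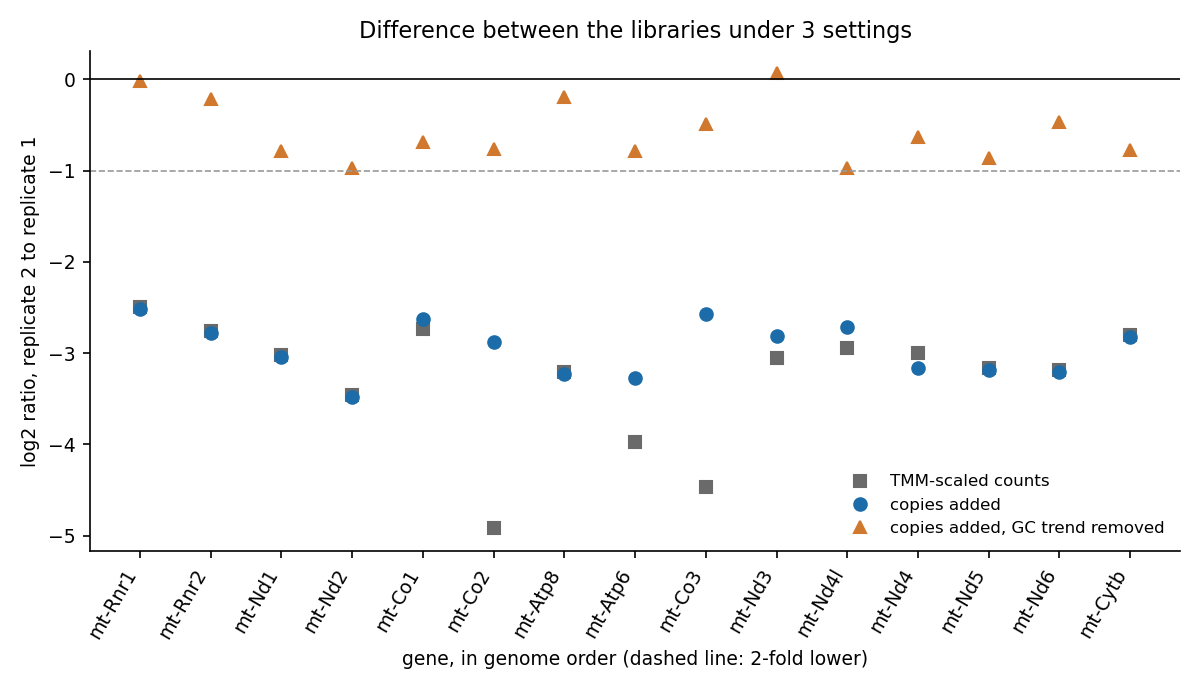
Log2 ratio of replicate 2 to replicate 1 for the 15 mRNA and rRNA genes in genome order, on TMM-scaled counts (grey squares), with copies added (blue circles) and with copies added and the GC trend removed (orange triangles). Adding copies brings mt-Co2, mt-Co3 and mt-Atp6 to the level of the other genes, and removing the GC trend puts all 15 between -0.97 and 0.06.

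Shares within the 13 mRNA genes do not depend on library scaling. With copies added, complex IV genes took 40.5% of mRNA counts in replicate 1 and 48.7% in replicate 2. Complex I genes took 39.8% and 33.5%, ATP synthase genes 12.6% and 10.1%, and mt-Cytb 7.13% and 7.73%. The largest single share was that of mt-Co1, 23.4% (95% exact interval 23.37 to 23.41) and 29.1% (29.07 to 29.18). That of mt-Nd2 was 10.9% (10.92 to 10.95) and 7.50% (7.47 to 7.53). Every change named here exceeds counting error, with no replicate of either library to measure other error.

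Ratios of the share in replicate 2 to that in replicate 1 ran from 0.686 for mt-Nd2 to 1.29 for mt-Co3. They were above 1 for mt-Co1, mt-Co2, mt-Co3, mt-Cytb, mt-Nd3 and mt-Nd4l and below 1 for the other 7. GC content and the log2 ratio with copies added correlated across these 13 genes at r = 0.617 and rho = 0.648, a description of genes that share both libraries. Of the 8 genes of lowest GC content, only mt-Nd3 had a share ratio above 1, at 1.09.

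**Figure D5:**
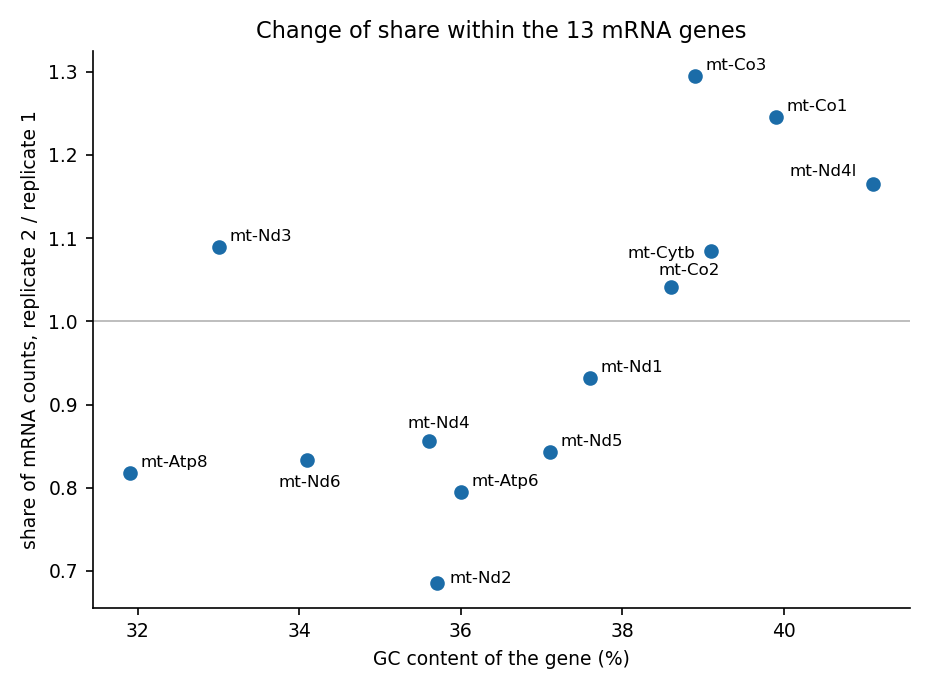
Share of mRNA counts with copies added in replicate 2 divided by that in replicate 1, on a linear axis, against the GC content of each of the 13 mRNA genes in percent. Genes above the grey line at 1 took a larger share in replicate 2, among them mt-Co3 at 1.29 and mt-Co1 at 1.25, while mt-Nd2 lies lowest at 0.686.

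Nuclear genes supply the remaining subunits of these complexes. In a list of 78, which also holds 4 genes of complex II, to which none of the 13 mRNA genes belongs, median levels were 16.7 and 252 TPM. By mean TPM over both libraries the highest were Atp5b, the catalytic beta subunit of ATP synthase, at 140 and 1374 TPM, Cox6b1 of complex IV at 155 and 876 TPM, and Uqcrb of complex III at 500.2 and 498 TPM. Orders differ between libraries: Uqcrb was the highest in replicate 1 and Atp5b in replicate 2. Lowest by that mean was Cox6a2, an isoform of heart and skeletal muscle, listed at 0 and at 6.51 TPM. In replicate 1 every mitochondrial mRNA gene stood above all 78. In replicate 2 Atp5b stood above mt-Co2, mt-Nd3 and mt-Nd6 on deposited TPM. Further genes of the list, such as Cox6a1 at 909 TPM and Cox6b1, also stood above mt-Nd3 and mt-Nd6 there. Between libraries 48 were called higher in replicate 2 and 4 lower, against 36.8% and 27.2% of all genes. Their log2 ratios had a median of 1.90, against 0.12 over all genes. With the GC trend removed 44 were called higher and 4 lower, against 13.5% and 12.4%, with a median of 1.32, against -0.03. Nuclear and mitochondrial subunit genes had medians of opposite sign in the same 2 libraries under these 2 settings. With the length trend removed, 32 of the nuclear genes were called higher and 26 lower, against 30.7% and 33.6% of all genes. With the GC trend removed, 9 of the 13 mitochondrial mRNA genes were not called, and none was called once copies were added as well.

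A further list of 57 holds genes that make and handle mitochondrial RNA and 5 genes that replicate the mitochondrial genome. Of the 57, 19 were called higher in replicate 2 and 17 lower, shares close to the 36.8% and 27.2% of all genes. The median was -0.01 on the log2 scale. Removal of the GC trend left 10 higher and 2 lower, beside 13.5% and 12.4% of all genes. In transcription, Tfam, which packages the DNA and activates its promoters, stood at 41.6 and 35.2 TPM, and Tfb2m, the initiation factor, at 41.8 and 32.5 TPM. The elongation factor gene Tefm was at 4.57 and 11.6 TPM, and Polrmt, the RNA polymerase, at 2 and 650 counts. On scaled counts Tfam and Tfb2m were lower in replicate 2, at -1.11 and -1.61, and Polrmt was higher, while Tefm at -0.46 was not called. With only 2 counts in replicate 1, the scaled ratio of Polrmt was 244 with a 95% counting interval from 67.2 to 2018. After removal of the GC trend Polrmt was still called, while Tfam at 0.05 and Tfb2m at -0.25 were not.

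For polyadenylation and stability, Mtpap, the mitochondrial poly(A) polymerase, stood at 13.4 and 17.7 TPM and Pde12, which removes such tails, at 4.86 and 5.65 TPM. Lrpprc and Slirp, partners that bind and stabilise the mRNAs, were at 11.3 and 34.5 TPM and at 29.6 and 75.9 TPM. Log2 ratios were -1.43 for Mtpap and -1.61 for Pde12, both called lower, and -0.25 for Lrpprc and -0.32 for Slirp, neither called. None of the 4 was called with the GC trend removed.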

How the data were processed

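Polyadenylated RNA of 1 adrenal gland sample was sequenced as 2 technical libraries of 28267651 and 17376660 counts. Per the deposited notes, reads were placed on mm10 with GENCODE M4 and quantified from transcriptome alignments; the sources used here give neither the aligner nor the counting program. The deposited expected counts, estimated fragments per gene, were rounded to whole numbers. TPM, posterior means and their interval bounds were used as deposited by the authors, and the posterior values were treated as a score with no fixed range. Annotated and effective lengths in bases also came from those tables. GENCODE M21, on the same assembly (GRCm38), supplied gene order, strand, sequences and GC content. All 37 members are present in both annotations, and 13 mRNA and 2 rRNA genes passed the minimum summed count of 20.

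A nuclear copy was a gene whose transcript aligned to a mitochondrial transcript (BLAST 2.17.0) with an identity of 90% or above across 50% or more of its own bases, and 15 such genes were in the tables. Libraries were scaled with TMM (edgeR 4.0.16, R 4.3.3) over genes that reached that minimum, and log2 ratios used a prior count of 0.5. The quasi-likelihood test of edgeR needs replicates and could not be fitted to 1 library against 1, so an exact binomial test conditional on the summed count was used (scipy 1.17.1). It was tested on simulated counts with 200 changed genes and counting error alone. Those counts held no GC trend and no division of reads with copies, so that check does not bear on calls that follow either. The binomial test covers counting error only. GC and length trends were lowess fits with a fraction of 0.3 (statsmodels 0.14.6). Scaling, filter, trends and copies were varied, as was DESeq2 1.42.0 scaling. All 176 list entries were found. Members and lists were chosen with earlier results of these data known. All 13 mRNA and 2 rRNA genes were named, with copies at a summed count of at least 20, in each list the 3 highest and 1 lowest by mean TPM, and all genes of transcription and of polyadenylation and stability.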

Additional observations from a re-analysis of the deposited data

How the results depend on the processing

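With 1 sample and 2 libraries, no setting gives an error between animals. Depth limits genes of few counts, such as the copies of low identity and Polrmt with 2 counts in replicate 1. No paired analysis was possible because the series has 1 group. The mitochondrial share of counts ran from 10.6% to 40.1% when either library was left out. The mean of 25.4% became 34.2% with copies included, 38.2% by TPM and 24.6% over mRNA genes alone. The count of 13 mRNA genes called lower fell to 4 with the GC trend removed, and to 0 with copies added and the GC trend removed, an alternative chosen after seeing the data. It stayed at 13 under the other 7 alternatives. The median log2 ratio of -3.16 was -2.05 under total-count scaling, -2.90 when scaled by nuclear totals, -3.23 with DESeq2 size factors, -3.12 and -3.18 with minimum summed counts of 1 and 100, and -3.04 with copies added. It was -0.82 with the GC trend removed, -5.61 with the length trend removed and -0.76 with copies added and the GC trend removed, where the mt-Nd3 log2 ratio turned from -3.05 to 0.0638. Nuclear respiratory chain genes called lower went from 4 to 0 under total-count scaling, 2 under nuclear totals and 26 with the length trend removed, where 3.95%, 20.7% and 33.6% of all genes were called lower. Higher calls of the same list went from 48 to 63, 52 and 32, beside 54.1%, 40.4% and 30.7% of all genes. For genes that handle mitochondrial RNA or replicate the mitochondrial genome, 19 higher calls became 30 under total-count scaling and 10 without the GC trend. Their 17 lower calls became 1 under total-count scaling, 10 under nuclear totals and 2 without the GC trend. Ranks given here are by the mean of both libraries. By counts per kilobase of annotated length the rank of mt-Atp8 went from 1 to 4 and that of mt-Co1 from 2 to 1. With copies added per effective length mt-Atp8 stayed at rank 1 and mt-Co1 ranked 4. On that scale mt-Co2 went from 10 to 2, mt-Co3 from 9 to 5 and mt-Atp6 from 7 to 3. With copies added per annotated kilobase, an alternative chosen after seeing the data, the ranks were 7 for mt-Atp8, 1 for mt-Co1, 2 for mt-Co2, 4 for mt-Co3 and 3 for mt-Atp6, which are also those of replicate 2, while in replicate 1 they were 6, 2, 3, 5 and 1. The rank of mt-Nd6 was 13 throughout. Apart from the GC, length and copy settings, whose construction removes the trend or the division, the cause of these shifts was not tested.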

Other observations

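Genes that charge mitochondrial tRNAs, 19 aminoacyl-tRNA synthetases and Qrsl1, were measured although the tRNAs themselves could not be. Of these 20, 10 were called higher in replicate 2 and 2 lower, beside 36.8% and 27.2% of all genes, with a median of 0.94 on the log2 scale, and with the GC trend removed 5 were higher and 1 lower, beside 13.5% and 12.4%. Lars2, which charges both leucine tRNAs, was the highest of the whole list on mitochondrial gene expression by mean TPM, at 6.06 and 248 TPM from 743 and 11435 counts. Its log2 ratio was 3.53, and 3.70 with the GC trend removed, called higher under both. Grsf1, which binds RNA in mitochondrial granules, stood at 77.7 and 88.8 TPM and was called lower at -1.26, and Hsd17b10, a subunit of the enzyme that cuts tRNA 5′ ends, at 20.3 and 115 TPM, not called at 0.68. Lowest was Mterf1b, of the transcription termination factor family, at 0.97 and 2.01 TPM, not called at -0.75.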
